A study of Rattus norvegicus with 12 samples.

Results

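Pdgfa, Fgf2, Igf1, Cntf and Bdnf are 5 genes of growth and neurotrophic factors that act on oligodendrocyte progenitor cells (OPCs), and they were measured here in astrocytes of the grey and of the white matter. They were chosen by name for that role, out of the 17941 genes counted, and all 5 had counts in both regions and entered the test. The paper had already reported more transcripts of each in the white matter astrocytes, and the choice was made with earlier results of these data known. The cultures came from young adult female Wistar rats. The gmASTRs, 6 culture preparations, were grown from cerebral cortex freed of meninges. The wmASTRs, also 6, were grown from the remaining brain without the amygdala, which holds the corpus callosum and other tracts but also hippocampus, thalamus and basal ganglia, so that deep grey matter astrocytes are among them. Both kinds were kept for 20 days in medium with fetal bovine serum, passaged at least once, and received no treatment. No sort for astrocytes is described, and the comparison of the 2 regions asks whether astrocytes from them offer progenitors different signals.

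OPCs divide and survive under factors that astrocytes release, and leave the cell cycle to become oligodendrocytes when the balance of these factors shifts. PDGF-A binds the receptor Pdgfra on OPCs and drives their division, FGF2 keeps them cycling and holds back differentiation, IGF-1 supports survival and myelin production, CNTF, a cytokine of the IL6 family that lacks a classical secretion signal, favours maturation, and BDNF signals through the receptor TrkB, the product of Ntrk2. In the adult brain, astrocytes are a known source of each, but microglia, neurons and vascular cells make several of them too.

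The factors differ in how their transcription starts. RefSeq (rat assembly GRCr8) lists 1 start for Pdgfa, Fgf2, Igf1 and Cntf in the promoter table used here and 6 for Bdnf, a gene with many alternative first exons spliced to a shared coding exon. Each promoter window of 300 bases, from 250 before the start to 50 after it, was searched on both strands for TGACGTCA (the cyclic AMP response element), TGACTCA (the AP-1 site), GGAAGTG (an ETS core) and TATAAA (the TATA box), none of which overlap another. Among 33469 rat promoters of the same length these letters occur in 1.83%, 4.63%, 9.86% and 14.2%, respectively. Matches were found at the start of Cntf and at starts 2 and 4 of Bdnf, numbered along the chromosome. These 3 windows are shown because they are the ones that hold a match, written 5′ to 3′ on the strand of the gene, with the matches in capitals. The first is chr1:219314486-219314785 (minus strand), the second chr3:116620585-116620884 (plus strand) and the third chr3:116637608-116637907 (plus strand).
Cntf: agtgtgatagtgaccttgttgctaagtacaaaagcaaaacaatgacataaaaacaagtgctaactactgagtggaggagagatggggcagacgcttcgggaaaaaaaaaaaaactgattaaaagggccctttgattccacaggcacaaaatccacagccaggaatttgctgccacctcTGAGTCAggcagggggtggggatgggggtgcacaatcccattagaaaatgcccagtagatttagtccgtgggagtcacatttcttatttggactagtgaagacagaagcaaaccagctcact
Bdnf start 2: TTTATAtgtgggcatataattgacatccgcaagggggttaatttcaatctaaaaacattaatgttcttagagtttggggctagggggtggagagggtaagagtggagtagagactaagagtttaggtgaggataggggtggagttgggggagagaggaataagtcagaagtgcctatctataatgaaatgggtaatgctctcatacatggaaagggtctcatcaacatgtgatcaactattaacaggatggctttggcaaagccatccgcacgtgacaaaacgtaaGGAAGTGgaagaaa
Bdnf start 4: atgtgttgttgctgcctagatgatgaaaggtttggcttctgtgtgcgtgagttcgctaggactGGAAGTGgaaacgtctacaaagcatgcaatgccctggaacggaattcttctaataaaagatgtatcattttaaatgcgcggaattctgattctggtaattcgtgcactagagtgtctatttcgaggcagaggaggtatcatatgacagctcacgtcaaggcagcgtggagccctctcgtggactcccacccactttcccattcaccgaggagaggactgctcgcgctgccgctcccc

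In the Cntf window the AP-1 letters lie on the opposite strand, with the first base of the match at -72 from the start. Bdnf start 2 holds the ETS letters at 37 and the TATA letters, on the opposite strand, at -250, and start 4 the ETS letters at -187. The windows of Pdgfa, Fgf2 and Igf1 and the other 4 of Bdnf hold none of the searched letters. Of the factors with a single start, Cntf had the lowest share of G and C in its window, 45.3%, followed by Igf1 with 48.3% and Fgf2 with 49.7%, and the window of Pdgfa had the highest. A match is a run of letters and does not show binding, and the 3′ reads do not tell which Bdnf start was used.

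Transcripts of Pdgfa, Fgf2, Igf1 and Bdnf were more abundant in wmASTRs than in gmASTRs, and those of Cntf had a higher mean in wmASTRs that did not pass the test. For each of the 5 the lowest wmASTR library lay above the highest gmASTR library. By mean the ratio was 1.75 for Pdgfa, 3.69 for Igf1, 3.82 for Cntf, 5.46 for Bdnf and 14.6 for Fgf2. Levels are given as CPM, the count scaled to the library total, which in a 3′ library do not grow with transcript length, and the test is edgeR's quasi-likelihood test on the counts, adjusted over the 15478 genes with at least 1 count. At a false discovery rate (FDR) under 0.05, 4 of the 5 were called higher in wmASTRs and none higher in gmASTRs, and the remaining factor, Cntf, was not called. Of all genes tested 4.28% were called higher in wmASTRs and 3.46% higher in gmASTRs. That base includes genes with very few counts. Among the 9394 genes kept by the authors' filter on low counts, 628 were called higher in wmASTRs and 530 higher in gmASTRs. At an FDR under 0.01, Pdgfa, Igf1 and Bdnf, 3 of the 5, were called, against 2.42% of all genes. Libraries separated without overlap, with wmASTRs higher, in 2.20% of all genes. Because the 5 were chosen with earlier results of these data known, these shares are a description and not a test of the set. In these bulk libraries, more cells that make a factor and more RNA per cell cannot be told apart. The 6 preparations per region are independent cultures by the study's account, so the errors given are those between cultures.

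**Figure D1:**
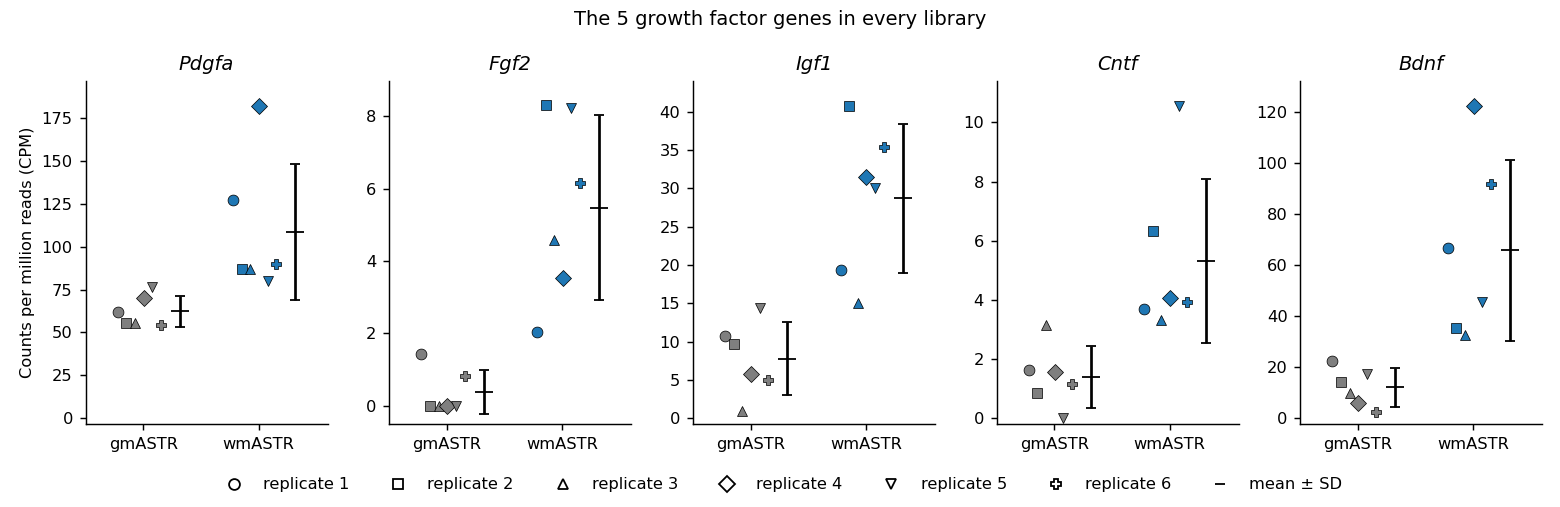
Level of each growth factor gene in CPM (vertical axes, each on its own scale) in the 6 gmASTR (grey) and 6 wmASTR (blue) libraries, with the shape of the symbol giving the replicate and the bar the mean ± SD. In every panel the lowest wmASTR library is above the highest gmASTR library, by 10.05 CPM for Bdnf and by 0.184 CPM for Cntf.

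Pdgfa, the mitogen of OPCs, was the most abundant of the factors. Its level in gmASTR replicates 1 to 6 was 61.8, 55.8, 55.4, 70.3, 76.5 and 54.3 CPM, and in wmASTR replicates 1 to 6 it was 127, 86.8, 87.1, 182, 80.1 and 89.9 CPM. The gmASTR libraries lay close together, 4 of the wmASTR libraries lay within 80.1 to 89.9 CPM, and wmASTR replicates 4 and 1 stood above them. The means were 62.4 ± 9.18 CPM (SD, n = 6) and 109 ± 39.6 CPM (SD, n = 6), and the medians 58.8 and 88.5 CPM. The log2 fold change, wmASTR over gmASTR, was 0.87 (SE 0.18, FDR = 0.00283). Without wmASTR replicate 4 it was 0.65 (SE 0.16, FDR = 0.00960). With 304 to 404 counts per gmASTR library and 482 to 1035 per wmASTR library, counting error alone would give a coefficient of variation of 5.38% and 3.92%, and those between the cultures were 14.7% and 36.4%.

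Fgf2, the factor that keeps OPCs in the cell cycle, was barely detected in gmASTRs. Its counts in gmASTR replicates 1 to 6 were 7, 0, 0, 0, 0 and 5, and in wmASTR replicates 1 to 6 they were 11, 50, 33, 20, 57 and 33. Thus 4 gmASTR libraries held no read of it while every wmASTR library held at least 11. On the CPM scale the gmASTR libraries ran from 0 to 1.42 with a median of 0, and the wmASTR libraries from 2.03 to 8.31 with a median of 5.37. At this depth 3 counts, taken as the floor, are worth 0.416 to 0.610 CPM, so the libraries without a read could hold Fgf2 up to that level by counting error. The means were 0.376 ± 0.611 CPM and 5.47 ± 2.56 CPM (SD, n = 6 each), and the log2 fold change was 3.88 (SE 0.98, FDR = 0.0124). The size of the fold change was less certain than its sign, and leaving out gmASTR replicate 1 gave 4.92 (FDR = 0.00418), whereas leaving out wmASTR replicate 5 gave 3.72 (FDR = 0.0390). In RefSeq, Fgf2 overlaps Nudt6 on the opposite strand at its 3′ end, where a 3′ library reads. Counting was without strand, so that reads in the overlap cannot be told apart by strand and Fgf2 is uncertain in that respect.

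Igf1, the survival and myelination factor, was found in all libraries. Its level in gmASTR replicates 1 to 6 was 10.8, 9.70, 0.944, 5.80, 14.4 and 4.98 CPM, and in wmASTR replicates 1 to 6 it was 19.3, 40.7, 15.0, 31.5, 30.1 and 35.4 CPM. The regions came within 0.585 CPM of each other, at gmASTR replicate 5 and wmASTR replicate 3, and the lowest library was gmASTR replicate 3, which had 6 counts. The means were 7.77 ± 4.79 CPM and 28.7 ± 9.75 CPM (SD, n = 6 each). The log2 fold change was 1.94 (SE 0.40, FDR = 0.00214), and over the 12 fits with 1 library left out it ran from 1.70 to 2.24. Relative to its mean, Igf1 varied more among the gmASTR libraries, with a coefficient of variation of 61.7%, than among the wmASTR libraries, with 34.0%, a difference that was not tested.

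Cntf, the cytokine that favours maturation, was detected at low counts in both regions. Its counts in gmASTR replicates 1 to 6 were 8, 5, 20, 8, 0 and 7, and in wmASTR replicates 1 to 6 they were 20, 38, 24, 23, 73 and 21. On the CPM scale the gmASTR libraries ran from 0 to 3.15 with a median of 1.35, and the wmASTR libraries from 3.33 to 10.6 with a median of 3.98. The regions did not overlap, but only by the distance between gmASTR replicate 3 and wmASTR replicate 3, and wmASTR replicate 5 was the highest by a wide margin. The means were 1.39 ± 1.04 CPM and 5.31 ± 2.78 CPM (SD, n = 6 each). The log2 fold change was 1.99 (SE 0.73, FDR = 0.102), so that Cntf did not pass the threshold. The call depended on the test. DESeq2 gave an FDR of 0.0152, edgeR on the table of genes that the authors kept after filtering gave 0.0395, and the 12 fits with 1 library left out gave 0.0652 to 0.236. In RefSeq, Cntf adjoins Zfp91 on the same strand, and reads that run from one to the other were not analysed here.

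Bdnf, the neurotrophin, had the smallest FDR of the factors. Its level in gmASTR replicates 1 to 6 was 22.6, 14.2, 9.75, 5.99, 17.2 and 2.33 CPM, and in wmASTR replicates 1 to 6 it was 66.7, 35.4, 32.6, 122, 45.4 and 91.5 CPM. The gap between the regions, from gmASTR replicate 1 to wmASTR replicate 3, was 10.05 CPM, and the libraries within each region spread widely, with wmASTR replicates 4 and 6 at the top and gmASTR replicate 6 at the bottom. The means were 12.0 ± 7.46 CPM and 65.6 ± 35.4 CPM (SD, n = 6 each). The log2 fold change was 2.51 (SE 0.39, FDR = 8.85e-05), and leaving out wmASTR replicate 4 gave 2.23 (SE 0.37, FDR = 0.000260). By p, Bdnf ranked 133rd among the 15478 genes tested, Igf1 371st, Pdgfa 404th, Fgf2 685th and Cntf 1763rd.

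**Figure D2:**
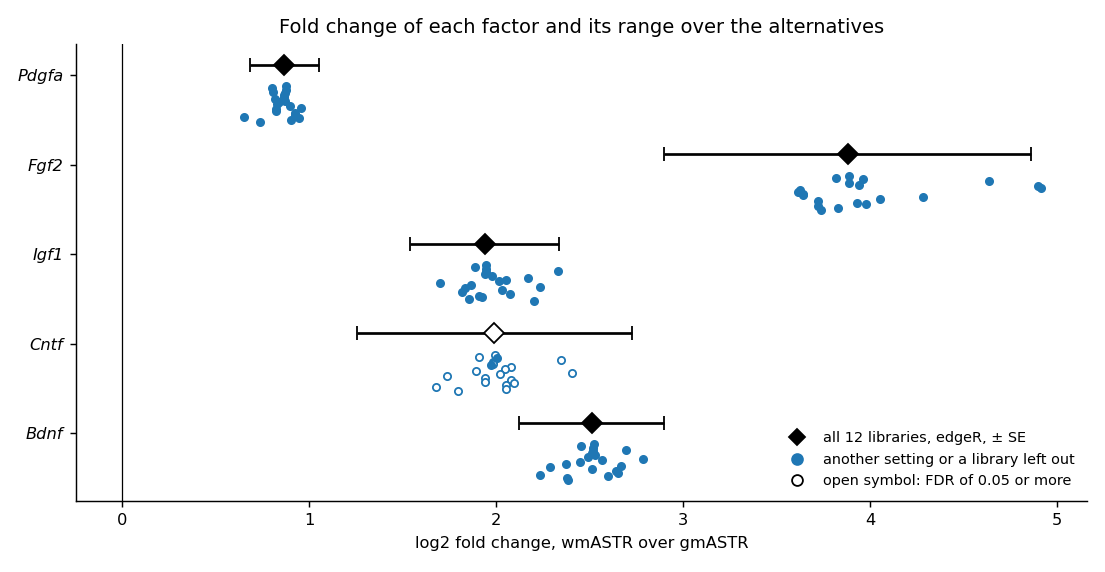
log2 fold change, wmASTR over gmASTR, of each factor in the edgeR fit of all 12 libraries (diamonds, bars ± SE) and under other tests, scalings, filters, the replicate block and with libraries left out (circles), with open symbols for an FDR of 0.05 or more. All values are above 0, and open symbols occur for Cntf.

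The order of the 5 factors was similar in both regions. Pdgfa had the highest CPM of the 5 in 11 of 12 libraries, and Bdnf in the remaining one, wmASTR replicate 6. Bdnf lay above Igf1 in 10 of 12 libraries, although their ranges overlapped in each region. Igf1 lay above Fgf2 in all 12 libraries and above Cntf in 11. Cntf and Fgf2 changed places between libraries of wmASTRs, where each was the higher in 3, and their means of 5.31 and 5.47 CPM differed by less than the spread. The sum of the 5 factors was 83.9 ± 16.9 CPM in gmASTRs and 214 ± 70.6 CPM in wmASTRs (SD, n = 6 each). Within that sum, Pdgfa made up 62.9% to 85.4% in gmASTR libraries and 39.6% to 61.1% in wmASTR libraries, and Bdnf 3.66% to 23.0% and 19.9% to 40.3%. Thus the share of Pdgfa was lower in each wmASTR library, while its level was higher.

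The 5 factors did not all rise and fall together from culture to culture. Each library's deviation was taken as log2(CPM + 1) minus the mean of its region. In wmASTR replicate 4, Pdgfa, Igf1 and Bdnf deviated by 0.80, 0.21 and 1.05 while Fgf2 and Cntf deviated by -0.41 and -0.23. In wmASTR replicate 5, Cntf and Fgf2 stood above the mean by 0.97 and 0.62, and Pdgfa and Bdnf below it, at -0.37 and -0.36. In gmASTR replicate 3, Igf1 was at -1.91 and Cntf at 0.92, and in gmASTR replicate 6, Bdnf was at -1.71 and Fgf2 at 0.51. Over the 10 pairs of factors and 12 libraries, the correlation of these deviations ran from -0.56 for Pdgfa with Fgf2 to 0.51 for Pdgfa with Bdnf, given as a description. Among Pdgfa, Igf1 and Bdnf, the factors with more counts, the correlations were positive, from 0.18 to 0.51. Each negative correlation involved Fgf2 or Cntf. Libraries share their depth and composition across genes, and the deviations of Fgf2 and Cntf rest on few counts.

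**Figure D3:**
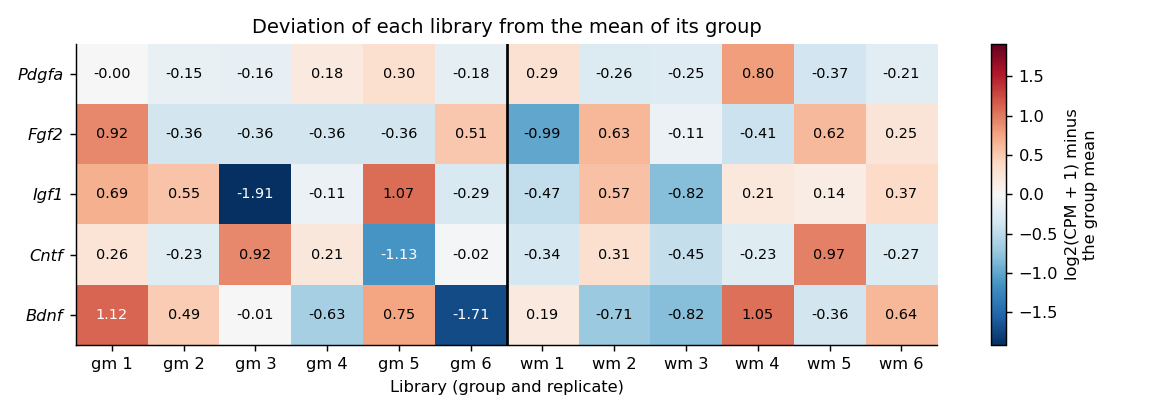
Deviation of each library (columns, gmASTR and wmASTR replicates 1 to 6) from the mean of its region for each factor (rows), as log2(CPM + 1) minus the region's mean, red above and blue below it. The highest deviation of Bdnf in wmASTRs is in replicate 4, at 1.05, where Fgf2 is at -0.41.

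Named genes whose deviations were most like those of a factor were sought for the 3 factors with a mean of at least 10 CPM, among 1026 named genes of that level, with Pearson's r over 12 libraries as a description. For Bdnf they included Ankrd1, a muscle and stress-response gene (r = 0.90), and Myh11, the smooth muscle myosin heavy chain (r = 0.88). Their log2 fold changes were 2.40 for Ankrd1 and 2.40 for Myh11, both higher in wmASTRs like that of Bdnf itself. For Igf1 they were Snx30, a sorting nexin (r = 0.89), Tas1r2, a taste receptor subunit (r = 0.87), and Postn, which encodes the matrix protein periostin (r = 0.84). Among these, Snx30 and Postn were higher in wmASTRs (log2 fold change 2.23 and 2.99) and Tas1r2 was higher in gmASTRs (-0.77, FDR = 0.0132). For Pdgfa they were Slc38a7, an amino acid transporter (r = 0.81), Spp1, which encodes osteopontin (r = 0.79), and Pwp2, a factor of ribosome assembly (r = 0.70). Of these, Spp1 was higher in wmASTRs, at 29.5 and 237 CPM in gmASTRs and wmASTRs, and Slc38a7 and Pwp2 were not called.

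The receptors, binding proteins and relatives of the factors did not share their direction. Of 105 other genes listed for these pathways, 21 had a name in the tables used here, and of these 4 were called higher in wmASTRs, 8 higher in gmASTRs and 9 were not called. Their median log2 fold change was -0.88, against 0.026 over all genes. The named genes lean toward gmASTRs. Among the 2095 named genes 22.4% were called higher in gmASTRs and 6.97% higher in wmASTRs, with a median of -0.69, so that the pathway counts describe the named members only.

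For the PDGF and FGF pathways, ligand and receptor were compared. Pdgfra, the receptor for PDGF-A and a marker of OPCs, was 78.6 ± 23.5 CPM in gmASTRs and 94.8 ± 34.7 CPM in wmASTRs (SD, n = 6 each), with a log2 fold change of 0.33 (SE 0.22, FDR = 0.392). Thus Pdgfa passed the test between the regions and Pdgfra did not, a difference between the genes that was not itself tested. Fgf1, the other named FGF ligand, was higher in gmASTRs, at 17.5 ± 5.57 against 7.38 ± 1.39 CPM, with a log2 fold change of -1.17 (SE 0.31, FDR = 0.0154), and its libraries did not overlap. Fgfr1, a receptor of both ligands, was also higher in gmASTRs, at 36.0 ± 10.1 against 19.9 ± 5.87 CPM (FDR = 0.0343). Fgfr3, the receptor typical of astrocytes, had 3.75 ± 2.46 and 1.80 ± 1.42 CPM and was not called (FDR = 0.517).

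In the IGF pathway, 7 relatives of Igf1 were named, of which 4 were higher in gmASTRs and 2 higher in wmASTRs. Igf2r, which takes up IGF-2 for degradation, was higher in gmASTRs, at 321 ± 81.1 against 156 ± 40.02 CPM, with a log2 fold change of -0.97 (SE 0.17, FDR = 0.000326). Of the named binding proteins, which hold IGFs outside the cell, Igfbp2, Igfbp4 and Igfbp6 were higher in gmASTRs and Igfbp7 in wmASTRs. Igfbp2, the most abundant of them, was at 6928 ± 1575 against 2910 ± 1358 CPM (log2 fold change -1.20, FDR = 0.00263). Igfbp6 was higher in gmASTRs, at 106 ± 56.7 against 26.4 ± 10.6 CPM (log2 fold change -1.91, FDR = 0.000143), and so was Igfbp4, at 165 ± 90.7 against 26.5 ± 27.4 CPM (log2 fold change -2.56, FDR = 0.00213). Igfbp7, a relative with low affinity for IGFs, was higher in wmASTRs, at 242 ± 106 against 543 ± 119 CPM (log2 fold change 1.22, FDR = 0.000288). Of these, Igf2r and Igfbp2 separated the libraries without overlap.

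Around Cntf, the named ligands and receptors of the IL6 family were mostly at low counts. Clcf1, a ligand of the CNTF receptor, was 1.84 ± 2.58 and 2.77 ± 1.61 CPM and was not called (FDR = 0.774). Of the receptors, Il11ra1, for interleukin-11, was higher in gmASTRs, at 150 ± 55.8 against 72.7 ± 13.3 CPM (log2 fold change -0.97, FDR = 0.00121), and Osmr, for oncostatin M, was 1.68 ± 1.68 and 3.63 ± 1.16 CPM and was not called (FDR = 0.434). Stat3, through which the family signals, was 449 ± 46.2 and 491 ± 39.5 CPM (FDR = 0.265).

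Around Bdnf, the receptors moved in opposite directions. Ntrk2, its receptor, was in gmASTRs 0.465 ± 0.547 CPM and in wmASTRs 5.26 ± 3.69 CPM (SD, n = 6 each), giving a log2 fold change of 3.50 (SE 0.90, FDR = 0.0132), although the lowest wmASTR library, at 0.831 CPM, lay below the highest gmASTR library, at 1.52 CPM. Ntrk3, the receptor of the related neurotrophin-3, was in gmASTRs 15.2 ± 15.8 CPM and in wmASTRs 1.41 ± 1.61 CPM, giving a log2 fold change of -3.29 (SE 0.84, FDR = 0.0135), and its gmASTR libraries ran from 0.379 to 42.7 CPM. Among the other growth factors, Tgfb2 was higher in wmASTRs, at 210 ± 78.1 against 512 ± 102 CPM (log2 fold change 1.34, FDR = 5.7e-05), and Tgfb1 and Ptn were not called.

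**Figure D4:**
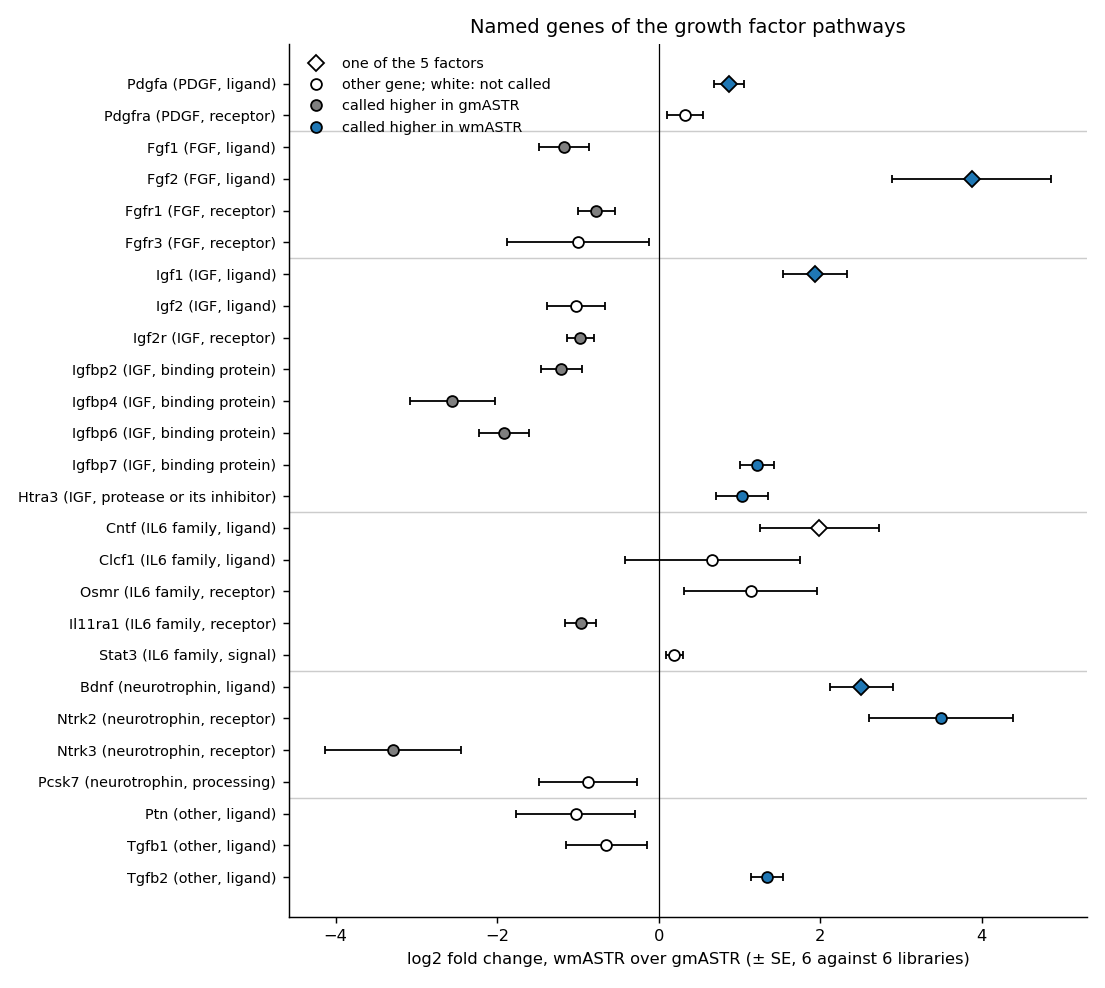
log2 fold change, wmASTR over gmASTR (± SE, 6 against 6 libraries), of the 5 factors (diamonds) and the 21 other named genes of their pathways (circles), coloured by the region in which edgeR called them higher and white where not called. The factors lie to the right of 0, whereas 8 of the other genes were called higher in gmASTRs and 4 higher in wmASTRs.

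The libraries also differed in markers of cell types. They held 4920488 to 7207118 counts each, with no difference in total between regions beyond the spread (exact permutation test, two-sided, p = 0.216). Astrocyte markers (8 of 14 named, 4 called higher in wmASTRs and none higher in gmASTRs) summed to 7103 to 10100 CPM in gmASTRs and 8200 to 10648 CPM in wmASTRs. Gja1, Vim and Mfge8 dominate that sum, and of these Mfge8 was called higher in wmASTRs. The called astrocyte markers were Gfap, the defining filament, with no count in any gmASTR library and 3.29 CPM in wmASTRs, Aqp4 with 0.1999 and 3.69 CPM, Slc1a3 with 8.21 and 21.3 CPM, and Mfge8 with 924 and 2737 CPM. By Western blot the paper detected GFAP protein in both kinds, with more in wmASTRs. The markers not called had higher means in gmASTRs. Vim had 2884 and 2353 CPM, without overlap of the libraries, Gja1 4789 and 4366, Aldoc 20.8 and 12.7, and Fgfr3 3.75 and 1.80 CPM. Microglia markers (5 of 12 named, all 5 called higher in wmASTRs) summed to 3.48 to 56.7 CPM in gmASTRs and 88.6 to 299.6 CPM in wmASTRs, and each had counts in every wmASTR library, whereas Cd68 was at 0 in 2 gmASTR libraries and C1qb and C1qc in 1 each. Oligodendrocyte lineage markers (4 of 11 named, 3 called higher in wmASTRs) summed to 76.1 to 121 and 142 to 256 CPM, endothelial markers (3 of 10 named, 1 called) to 7.92 to 28.2 and 29.1 to 315 CPM, pericyte and smooth muscle markers (2 of 10 named, both called) to 29.2 to 172 and 376 to 943 CPM, and choroid plexus markers (2 of 10 named, both called) to 0.157 to 4.55 and 7.81 to 382 CPM. In the oligodendrocyte lineage sum, Pdgfra, which was not called, had means of 78.6 and 94.8 CPM and Cspg4 of 22.1 and 78.9 CPM. Mbp had 0.713 and 16.5 CPM and Mag 0.109 and 4.03 CPM. Leptomeningeal and fibroblast markers (6 of 12 named, 4 called higher in gmASTRs) summed to 2763 to 7635 CPM in gmASTRs and 1028 to 1824 CPM in wmASTRs. The single named ependymal marker, Rarres2, which was called higher in gmASTRs, ran from 28.8 to 72.3 and from 12.7 to 33.1 CPM, and the neuron markers (2 of 10 named, 1 called in each direction) from 14.9 to 34.5 and from 13.1 to 39.4 CPM. WmASTR replicate 4, the highest library for Pdgfa and Bdnf, was also the highest for the microglia, oligodendrocyte lineage, endothelial, smooth muscle and neuron sums. Without it the log2 fold change was 0.65 for Pdgfa and 2.23 for Bdnf, against 0.87 and 2.51 with all libraries. The microglia sums and the pericyte and smooth muscle sums of every wmASTR library lay above those of every gmASTR library. The part of these cell types in the levels of the 5 factors was not tested.

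**Figure D5:**
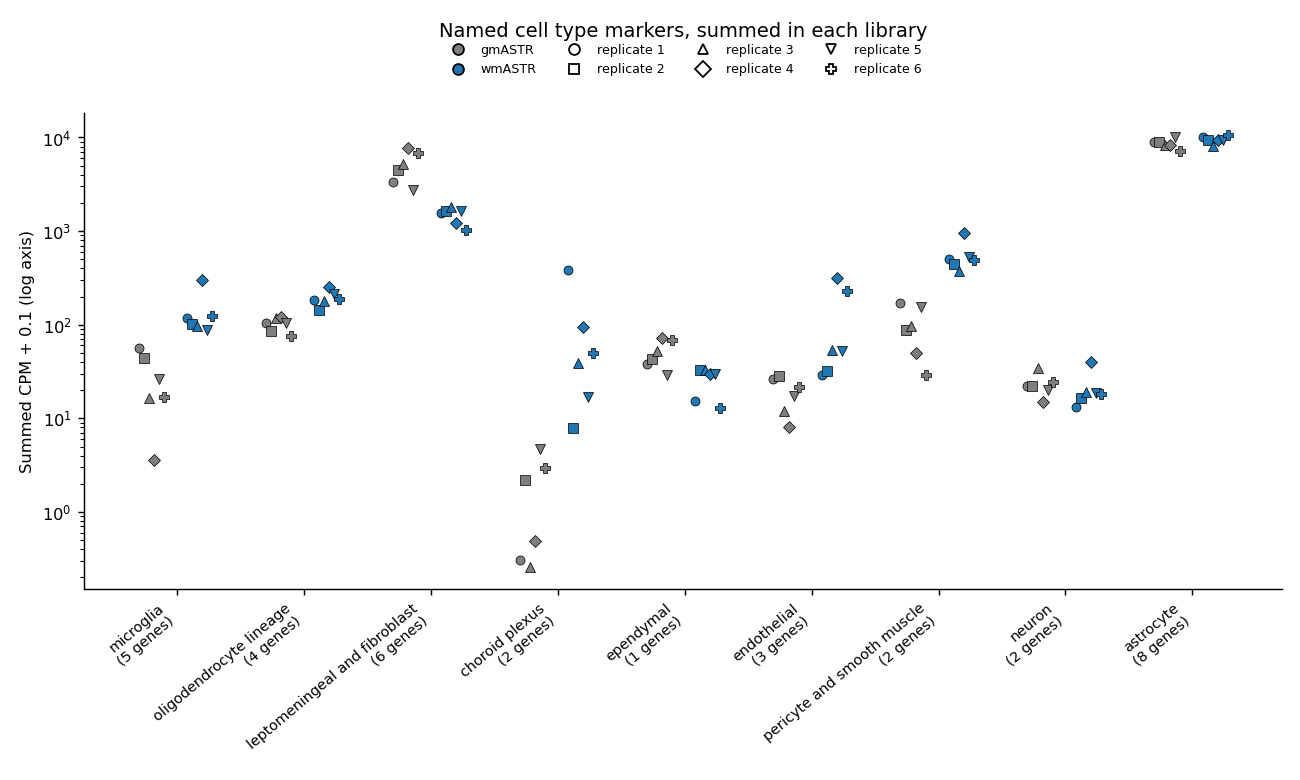
Sum of the named markers of each cell type (horizontal axis, with the number of genes) in each gmASTR (grey) and wmASTR (blue) library, as CPM + 0.1 on a log axis, with the shape of the symbol giving the replicate. The microglia sums of the 6 wmASTR libraries, 88.6 to 299.6 CPM, lie above those of the 6 gmASTR libraries, and the leptomeningeal and fibroblast sums lie below them.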

How the data were processed

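RNA of 6 gmASTR and 6 wmASTR cultures was sequenced as 3′ libraries. Alignment by the authors used HISAT (0.1.5), sorting SAMtools (1.2), and counting per Ensembl gene HTSeq (0.6.1p1) in union mode without strand, per the paper's methods and the submitters' processing notes. The paper's methods give the rat genome with a version number that names no rat build, so the build cannot be told from these sources. Use of molecular identifiers is not given in the sources used here, so floors cover counting error only. The deposited values are counts without normalization, for 17941 genes, and again for the 9394 genes left after the authors' filter on low counts, which lacks Fgf2.

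CPM values, fold changes and tests were computed here. edgeR (4.0.16, R 4.3.3) was run with TMM factors and a model of region alone. Its quasi-likelihood p-values, from fold changes with a prior count of 0.125, were adjusted by Benjamini-Hochberg over 15478 genes. Standard errors are the fold change divided by the root of F. DESeq2 (1.42.0) and limma (3.58.1) served as alternatives. Python (3.11.15), numpy (2.4.6), pandas (2.3.3), scipy (1.17.1) and matplotlib (3.10.9) were used for the rest. Alternatives were other scalings, tests and filters, each library left out, gmASTR replicate 5 and wmASTR replicate 4 left out together, and the replicate number as a block. The edgeR procedure was tested on simulated data, in which the share of false calls exceeded the nominal FDR, some of the false calls fell on genes with counts as low as those of Fgf2 and Cntf, and most changes of the smaller simulated size were missed.

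Names come from the paper's additional file 1, where 2010 have an identifier next to them and 85 were matched through the CPM values of the 12 libraries (within 0.5 counts plus 0.2% of the count). Pdgfa, Igf1 and Cntf are among the latter. Nudt6 and Zfp91 have no name there. Some genes of the lists are not reported here and were left out of their counts and sums. The genes named are all 5 factors, all named receptors, up to 3 other called genes per pathway with the smallest FDR, and the 3 genes most like each factor of at least 10 CPM. Other genes are named where a sentence on a group or on a marker list needs them, chosen after their values were seen. The members and lists were chosen with earlier results of these data known. Each animal gave a gmASTR and a wmASTR culture, but the sources do not say whether a shared replicate number marks a shared animal.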

Additional observations from a re-analysis of the deposited data

Results flagged for a closer look

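Of 72 groups of 6 libraries examined (each of the 5 factors, their sum, the marker sums and the other named pathway genes, in both regions), 8 held a library whose gap to its nearest neighbour exceeded the 95% critical value of Dixon's test. Chance alone passes this value in about 1 in 20 groups. None of the 8 was among the 5 factors or their sum. WmASTR replicate 4, in which Pdgfa (182 CPM) and Bdnf (122 CPM) were highest, stood apart with 299.6 CPM of microglia markers (nearest library 125 CPM, gap 0.83 of the range), 943 CPM of pericyte and smooth muscle markers (nearest 523, gap 0.741), 39.4 CPM of neuron markers (nearest 19.1, gap 0.77) and 705 CPM of Tgfb2 (nearest 508, gap 0.645). WmASTR replicate 1 stood apart with 382 CPM of choroid plexus markers (nearest 95.4, gap 0.766), and wmASTR replicate 3 with 46.5 CPM of Igfbp6 (nearest 28.1, gap 0.643). In gmASTRs, replicate 5 stood apart with 1.52 CPM of Ntrk2 (nearest 0.520, gap 0.657) and replicate 4 with 15.5 CPM of Tgfb1 (nearest 9.60, gap 0.823).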

How the results depend on the processing

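The direction of the 5 factors was the same in every setting run, and Pdgfa, Fgf2, Igf1 and Bdnf stayed below an FDR of 0.05 in each setting that gave a value (the authors' filtered table gives none for Fgf2). Over the fits with 1 library left out, the log2 fold change ran from 0.65 to 0.96 for Pdgfa, 3.61 to 4.92 for Fgf2, 1.70 to 2.24 for Igf1 and 2.23 to 2.79 for Bdnf. That of Cntf ran from 1.68 to 2.41, with an FDR of 0.05 or more in all 12. Cntf passed the threshold with DESeq2 (log2 fold change 2.01, FDR = 0.0152), in the filtered table (1.98, FDR = 0.0395) and with the bias-adjusted deviance of edgeR 4, an alternative chosen after seeing the data (1.97, FDR = 0.0201), and in the two-sided exact permutation test of log2(CPM + 1), which is not adjusted over genes (1.43, p = 0.00216, the smallest that 924 divisions can give, reached by all 5 factors). It did not pass with limma-voom (just above 0.05), filterByExpr (0.0706), RLE size factors (0.102), library totals (0.116) or without gmASTR replicate 5 and wmASTR replicate 4 (0.129). The cause was not tested. Thus 5 factors were called with DESeq2 and the bias-adjusted deviance and 4 in the other settings, where the 4 of the filtered table include Cntf and lack Fgf2. Of the named pathway genes, 5 to 9 were called higher in gmASTRs over the fits with 1 library left out, the 5 without gmASTR replicate 4, and 3 or 4 higher in wmASTRs. All 5 factors separated the libraries with TMM scaling and with the totals of the filtered table as well. Libraries with the same replicate number did not deviate together (correlations from -0.0328 to 0.0109 over 9394 genes), and a replicate block in the model left the same 4 factors called, with Cntf at a log2 fold change of 2.08 (FDR = 0.212). At these depths the levels of Fgf2 and Cntf in gmASTRs lie near the floor of 3 counts.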
